A study of Homo sapiens with 4 samples.

Results

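SNX16 and 9 other sorting nexin genes, SNX1, SNX2, SNX3, SNX5, SNX6, SNX9, SNX10, SNX13 and SNX14, were described in K562 cells after exposure to AC-1041. The members were taken by gene name from the probes of the arrays, 1 probe a gene, and make up 10 of the 14257 genes on the array. They were chosen with their ratios of treated to control cells in view, so these ratios are given as a description with no test. K562 is a human leukaemia cell line with erythroid features, and AC-1041 is a fluorescent phthalimide related to thalidomide that binds lipid droplets. Total RNA of cells treated for 4 h and of control cells was labelled with different dyes and compared on the same array, on 4 Agilent arrays in all. Arrays 1 and 2, here the Cy5 arrays, held the treated RNA in Cy5 and the control RNA in Cy3, and arrays 3 and 4, here the Cy3 arrays, held the reverse. The control cells are called untreated in the sample labels and are a DMSO control in the methods, and the labels give no dose. The labels do not tie the arrays to separate cultures, so the spread between them may be technical. All values come from a single cell line at a single time.

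Sorting nexins share a PX domain, which binds phosphoinositides, above all phosphatidylinositol 3-phosphate on early endosomes. Several also carry a BAR domain, which senses or forms curved membrane, and these shape the tubules through which receptors leave the endosome for the Golgi or the cell surface. Receptors that are not retrieved in this way are packed into inner vesicles by the ESCRT machinery and broken down in lysosomes.

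The array probes of 4 members are shown because the direction of a sorting nexin's ratio often turned with the dye. Over all probes tested, the difference between orientations moved with the base composition of the probe. These 4 probes alone do not show that, since SNX1 differs little from SNX2 and SNX14 in G and C. G and C are in capitals, the letters run 5′ to 3′ as deposited, and the hg18 positions were taken from the files. The probes of SNX2, SNX9 and SNX14 match stretches longer than the probe itself and so cross an intron.
SNX1 (chr15:62215588-62215647): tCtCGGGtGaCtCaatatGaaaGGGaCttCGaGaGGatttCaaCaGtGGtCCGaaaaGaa
SNX2 (chr5:122191240-122193250): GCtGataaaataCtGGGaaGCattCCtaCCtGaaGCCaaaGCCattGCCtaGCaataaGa
SNX9 (chr6:158250786-158250962): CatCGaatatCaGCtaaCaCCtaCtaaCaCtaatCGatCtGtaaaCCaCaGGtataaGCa
SNX14 (chr6:86273716-86274453): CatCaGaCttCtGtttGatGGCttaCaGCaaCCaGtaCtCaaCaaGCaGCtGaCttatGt
G and C made up 45% of the SNX1 probe, 43.3% of the SNX2 and SNX14 probes and 38.3% of the SNX9 probe.

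Each array held 14297 gene probes, of which 8852 were tested, having been well above background on 2 arrays or more. The Cy5 arrays were the noisier ones, with an SD of the 77 negative control spots between 226 and 308 intensity units, against 27.8 to 40.5 on the Cy3 arrays. Over all probes tested the log2 ratios correlated at r = 0.81 between arrays 1 and 2 and at r = 0.95 between arrays 3 and 4, but between -0.29 and -0.09 across the pairs. The quality of the arrays and the orientation of the dyes therefore cannot be told apart, and the 2 orientations are given separately. Of 12 erythroleukaemia marker genes, 11 were on the array and all 11 were well above background in 1 or both channels on all 4 arrays. The lymphoid marker MS4A1 was so on none. In the treated RNA 6 of the 11 erythroleukaemia markers were lower and 1 was higher, by limma at an adjusted p under 0.05, among them NFE2 (log2 ratio -1.31 on 3 arrays), KLF1 (-0.70) and GATA1 (-0.56). Whether these shifts move with those of the sorting nexins was not tested.

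SNX16 had the largest ratio of the 10 genes. Its protein joins a PX domain to a coiled coil and sits on early and late endosomes, where it has been linked to the traffic of the EGF receptor. The log2 ratio of treated to control was 0.58 and 0.73 on the Cy5 arrays and 2.49 and 2.66 on the Cy3 arrays. All 4 arrays were above 0, and the arrays within an orientation lay close together, while the orientations lay 1.92 apart. The mean log2 ratio was 0.66 on the Cy5 arrays, a 1.57-fold ratio, and 2.57 on the Cy3 arrays, a 5.96-fold ratio. Over both orientations the limma estimate, from a model with a treatment and a dye term, was 1.61 with a standard error of 0.069 (SD over arrays 1.11, n = 4), which is 3.06-fold. The control channel was well above background on the Cy3 arrays and not on the Cy5 arrays, so this fold and the ranks that follow rest in part on a control level that is only bounded. Of the 8852 probes tested, 21 had a treatment estimate at or above that of SNX16, itself included. By orientation, 18 probes had a mean at or above it on the Cy3 arrays, and 509 did on the Cy5 arrays.

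The deposited spot intensities, before any correction, give the level behind these ratios. In the treated channel SNX16 read 1347, 3250, 2984 and 3640 on arrays 1 to 4. In the control channel it read 936, 1353, 494 and 583. The mean of the negative control spots in the control channel was 358, 342, 117 and 122 on the same arrays, so the SNX16 spot was brighter than that mean in the control channel on every array. Feature Extraction nonetheless did not mark it as well above background there on arrays 1 and 2, so the control level is an upper limit. The 1.57-fold mean ratio of the Cy5 orientation is a lower bound in that respect only. It takes the control level as measured, and array 1 alone read 0.58 in log2. It does not allow for the gap between orientations. On the normalized log2 scale the treated channel ran from 10.18 to 11.89 and the control channel from 9.17 to 10.53. These ranges overlap, because the treated channel of array 1 lay below the control channel of array 2, although within each array the treated channel was the brighter. The probe lies on chromosome 8, at 82874968 to 82875027 of hg18, and 38.3% of its bases are G or C.

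**Figure D1:**
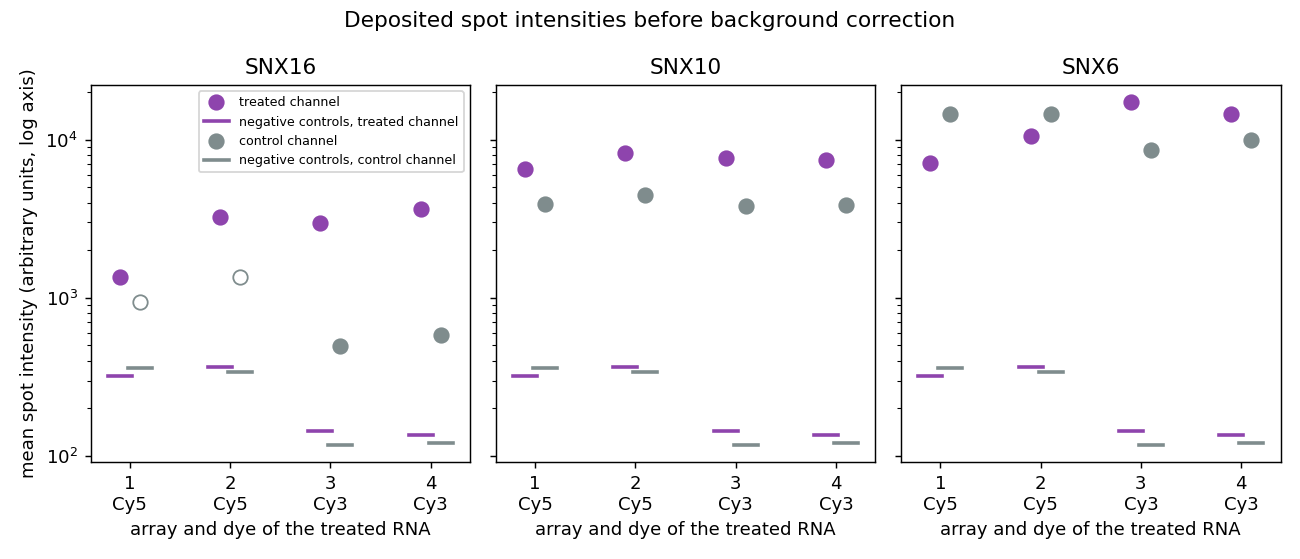
Deposited mean spot intensity (arbitrary units, log axis) of SNX16, SNX10 and SNX6 on each array, with the dye of the treated RNA under the array number. Purple points are the treated and grey points the control channel, open points were not well above background, and short bars give the mean of the 77 negative control spots in that channel. SNX16 and SNX10 were brighter in the treated channel on all 4 arrays, while the channels of SNX6 changed places between the orientations.

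SNX10 and SNX13 were the other members above 0 on all 4 arrays. SNX10, a small protein with little beyond its PX domain, is known for its part in osteoclasts and in the acidification of endosomes and lysosomes. Its log2 ratio was 0.68 and 0.26 on the Cy5 arrays and 0.88 and 0.98 on the Cy3 arrays. The estimate was 0.70 with a standard error of 0.083 (SD 0.32, n = 4), or 1.62-fold, and 342 of the probes tested reached at least this value. The treated channel of SNX10 ran from 12.59 to 12.94 on the normalized log2 scale. Its control channel ran from 11.88 to 12.36, with no overlap, but the share of all probes without overlap is not given here. The SNX10 probe lies at chr7:26380261-26380320.

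Among the members SNX13 stood out by its even ratios. It belongs with SNX14 to the sorting nexins that carry an RGS domain, the domain that speeds GTP hydrolysis by G protein alpha subunits in other proteins, and are anchored in the endoplasmic reticulum. Its log2 ratio was 0.42, 0.31, 0.39 and 0.44 on arrays 1 to 4. The orientation means, 0.37 and 0.41, differed by less than the arrays of the Cy5 pair did from each other. The estimate was 0.39 with a standard error of 0.065 (SD 0.054, n = 4), a 1.31-fold ratio, and this was the smallest SD of the 10 genes. Outside the 10, SNX18 and SNX19 had smaller SDs, 0.042 and 0.016, and were well above background on 2 arrays in each channel. The treated channel of SNX13, 11.77 to 12.03, did not overlap its control channel, 11.36 to 11.65. Here too the share of all probes without overlap is not given. Its probe lies at chr7:17799893-17799952.

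SNX14 shares the domain plan of SNX13, and its protein is found where the endoplasmic reticulum touches lipid droplets. The 2 genes differed by orientation. SNX14 read -0.063 and -0.14 on the Cy5 arrays and 0.80 and 0.64 on the Cy3 arrays. It was thus slightly below 0 on the first pair and clearly above 0 on the second, and its estimate of 0.31 (standard error 0.067, SD 0.48) averages these. SNX3, a PX-only protein that works with retromer to return the Wnt carrier Wntless from endosomes, had the same shape. It read -0.18 on array 2 but 0.78 and 0.73 on the Cy3 arrays. Its spot on array 1 carried an outlier mark and was left out. The SNX3 estimate of 0.29 (standard error 0.083) rests on those 3 arrays, and its probe lies at chr6:108639602-108639661.

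**Figure D2:**
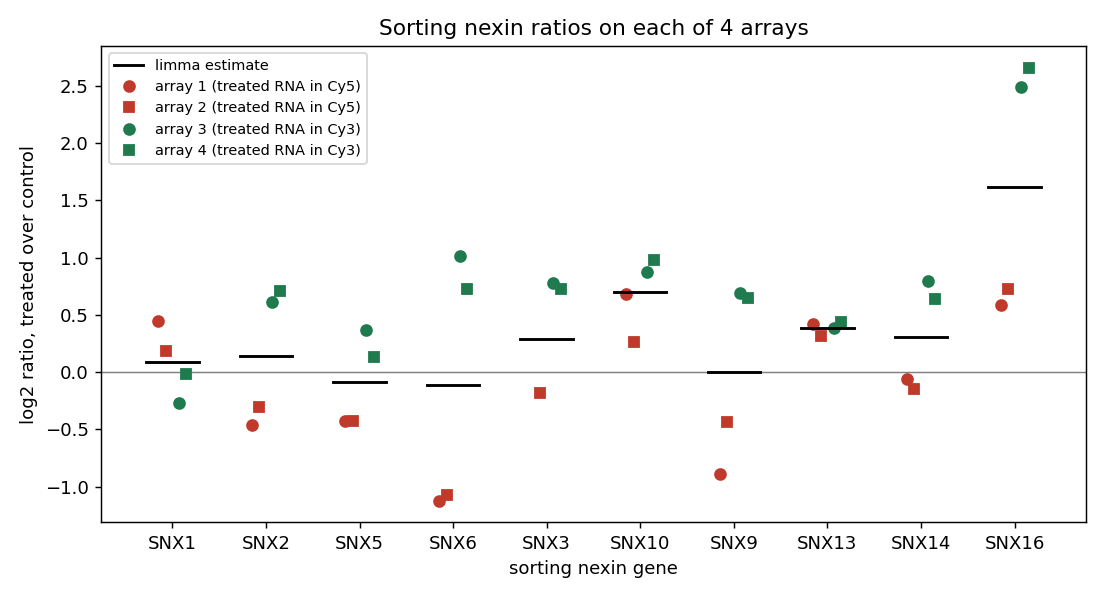
Log2 ratio of treated to control (vertical axis) for each sorting nexin (horizontal axis), with red points for arrays 1 and 2 (treated RNA in Cy5), green points for arrays 3 and 4 (treated RNA in Cy3) and black bars for the limma estimate. SNX10, SNX13 and SNX16 have all 4 points above 0, SNX1 has its red points above and its green points below 0, and SNX3 has 3 points.

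The retromer-associated SNX-BAR proteins are SNX1 and SNX2, which pair with SNX5 or SNX6 to coat the tubules that carry cargo from endosomes to the Golgi. None of the 4 genes kept a direction over the orientations. SNX6 read -1.12 and -1.07 on the Cy5 arrays and 1.02 and 0.72 on the Cy3 arrays. The orientations lay 1.96 apart, the widest gap of the 10 genes, and the estimate was -0.11 (standard error 0.073, SD 1.14). Its spot intensities changed places in the same way, with 7138 (treated) and 14536 (control) on array 1, and 17282 (treated) and 8614 (control) on array 3. The probe of SNX6 lies at chr14:34101398-34101457.

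SNX2 read -0.46 and -0.30 on the Cy5 arrays and 0.61 and 0.71 on the Cy3 arrays, with an estimate of 0.14 (standard error 0.067, SD 0.61). SNX5 read -0.42 and -0.43, then 0.37 and 0.13, with an estimate of -0.089 (standard error 0.070, SD 0.40). Its probe lies at chr20:17896368-17896427. Both genes thus followed SNX6, below 0 on the first pair of arrays and above 0 on the second. SNX1, the partner of SNX5 and SNX6, went the other way. It read 0.44 and 0.18 on the Cy5 arrays and -0.27 and -0.017 on the Cy3 arrays, and its estimate was 0.086 (standard error 0.077, SD 0.30). The treated and control channels of all 4 genes overlapped on the normalized log2 scale.

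SNX9 carries an SH3, a PX and a BAR domain and acts at the plasma membrane, where it helps to recruit dynamin to clathrin-coated pits. Its ratios cancelled almost exactly. They were -0.89 and -0.44 on the Cy5 arrays and 0.69 and 0.65 on the Cy3 arrays, for an estimate of 0.0021 (standard error 0.085, SD 0.79).

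Of the 9 members with an unmarked spot on all 4 arrays, 3 were above 0 on every array, and over all probes so measured and tested the share was 16.7%. A further 5 (SNX2, SNX5, SNX6, SNX9 and SNX14) were below 0 on the Cy5 arrays and above 0 on the Cy3 arrays, a pattern held by 24.4% of all probes. The reverse, seen in SNX1, was held by 21.3% of all probes. At the threshold used for all probes, a limma adjusted p under 0.05, 5 members lay on the higher side, where 24.3% of the 8852 probes did, and 0 on the lower side, where 13% did. Since the genes were chosen from this contrast, these counts are no test of them and nothing is read from them. The dye term passed the same threshold in 9 of the 10 genes, SNX13 being the exception, and in 58.2% of all probes. The median estimate was 0.21 over the 10 genes and 0.017 over all probes tested.

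**Figure D3:**
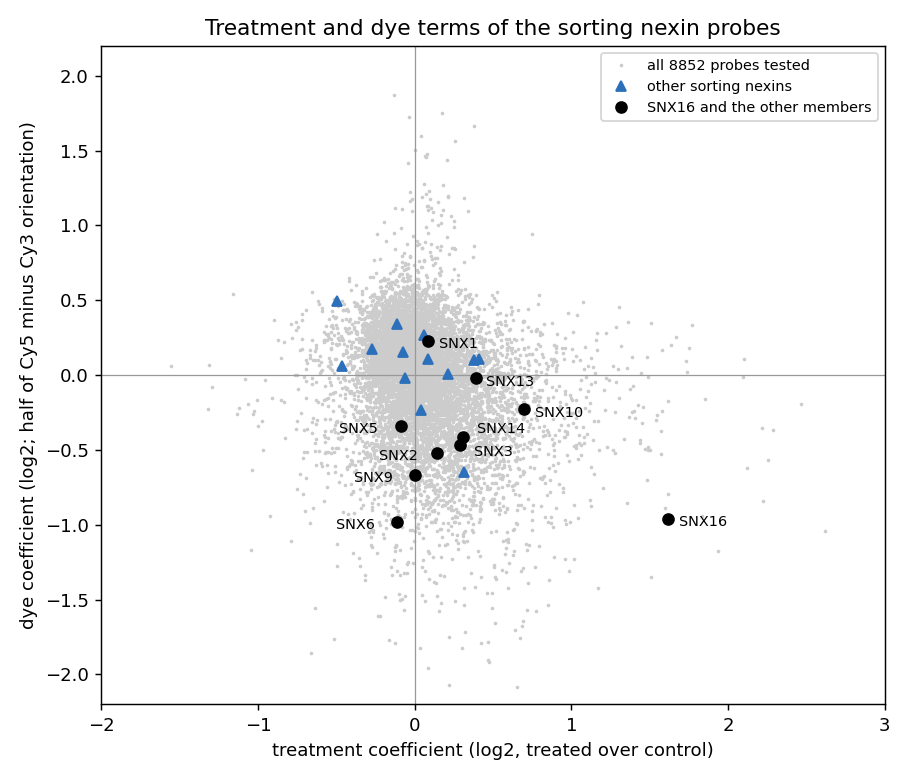
Treatment coefficient (horizontal axis, log2 of treated over control) against dye coefficient (vertical axis, log2, the deviation of the Cy5 orientation from the treatment coefficient) in the limma fit, for all 8852 probes tested (grey; 5 lie outside the axes), the 10 members (black) and 13 other sorting nexins (blue). SNX16 lies at 1.61 and -0.96, apart from the other members, and 9 of the 10 members have a dye coefficient below 0.

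Base composition moved with the dye coefficient. Over all 8852 probes the dye coefficient and the percentage of G and C in the probe correlated at r = 0.60 and rho = 0.68, across probes that share the same 4 arrays. The median dye coefficient was -0.45 for probes with 36% G and C or less and 0.25 for those with more than 51%. The members' probes held 35% to 45% G and C with a median of 40%, and over the 10 genes the correlation was r = 0.55 and rho = 0.45. SNX6 and SNX10, both at 35%, nevertheless had dye coefficients of -0.98 and -0.23. SNX2, SNX13 and SNX14, all at 43.3%, had -0.52, -0.023 and -0.41. Probes of the same composition thus differed widely, and part of the gap between orientations moved with composition while its cause was not tested.

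With this trend removed within each array, a step chosen after the data had been seen, the SNX16 log2 ratios were 0.73 and 0.84 on the Cy5 arrays and 2.17 and 2.30 on the Cy3 arrays. SNX16 remained above 0 on all 4 arrays with a gap of 1.45 between orientations. SNX10 then read 0.98, 0.50, 0.36 and 0.45, so that its higher orientation became the Cy5 one. SNX5 then lay below 0 on all 4 arrays, at -0.20, -0.25, -0.044 and -0.31, where it had changed sign before. SNX6 still changed sign, with -0.83 on each of the Cy5 arrays and 0.50 and 0.19 on the Cy3 arrays.

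**Figure D4:**
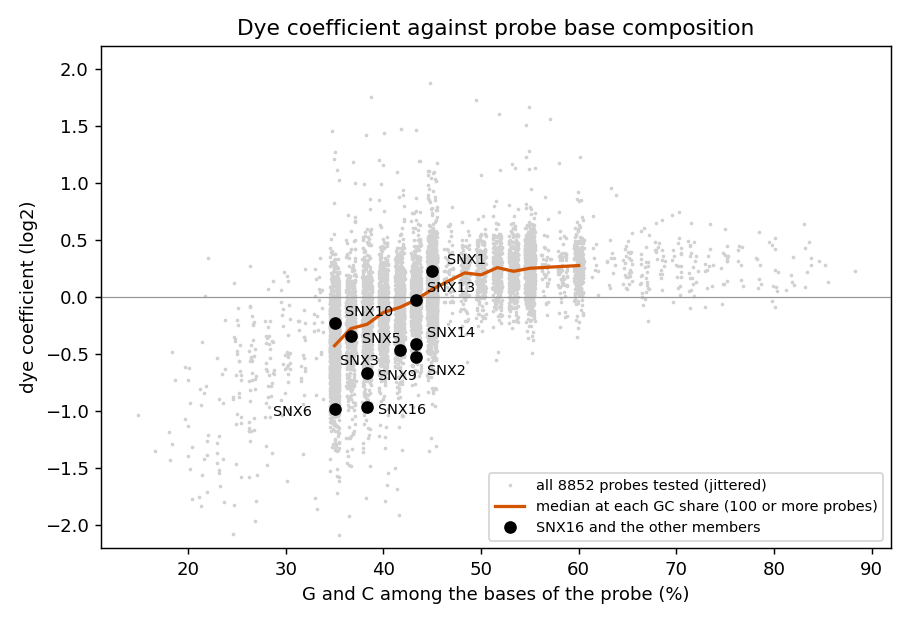
Dye coefficient (vertical axis, log2) against the percentage of G and C in the probe (horizontal axis, jittered for the grey points, which are all 8852 probes tested). The orange line joins the medians at each percentage with at least 100 probes, and black points are the 10 members, which lie between 35% and 45%. The line rises with G and C, SNX1 and SNX10 lie above it, and SNX6 and SNX16 lie below it.

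The signals that Feature Extraction itself had corrected for background and dye gave SNX16 log2 ratios of 1.28 and 1.12 on the Cy5 arrays and 2.87 and 2.92 on the Cy3 arrays. The Cy5 pair was therefore higher than under loess, by more than the arrays of that pair differed, and the orientations lay 1.70 apart. SNX6 kept its change of sign there, at -1.38 and -1.15 and then 1.09 and 0.72. SNX13 read 0.094 and 0.19 and then 0.35 and 0.44, so its evenness over the orientations held under loess and not under these signals.

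The array held 15 other sorting nexin genes, of which 13 were tested. ARHGAP33, called SNX26 in the files, was not counted among them because its current symbol is not that of a sorting nexin (log2 ratio -0.11, dye coefficient 0.41). SNX7 and SNX20 were not well above background in either channel on any array. By limma over all probes tested, 4 were higher in treated cells. These were SNX11 (log2 ratio 0.41 ± 0.076, standard error, adjusted p = 0.0038), SNX25 (0.38 ± 0.070, adjusted p = 0.0037), SNX4 (0.32 ± 0.073, adjusted p = 0.011) and SNX19 (0.22 ± 0.063, adjusted p = 0.029). SNX19 was well above background on 2 arrays in each channel and did not pass with processed signals (adjusted p = 0.19) or median centring (adjusted p = 0.073). SNX11, a PX-only protein close to SNX10, was above 0 on all 4 arrays, as were SNX19 and SNX25, which share a PXA domain with SNX13 and SNX14. SNX4, an SNX-BAR protein of the recycling route, read -0.48 and -0.18 on the Cy5 arrays and 0.95 and 0.97 on the Cy3 arrays.

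Lower in treated cells were 3 of them. SNX12, the closest relative of SNX3, read -0.46, -0.34, -0.45 and -0.60 (estimate -0.46 ± 0.067, adjusted p = 0.0011, but 0.056 with processed signals). SNX17, which binds cargo of the LDL receptor family for return to the surface, had an estimate of -0.27 ± 0.070 (adjusted p = 0.017) and was below 0 on all 4 arrays. SNX22 had -0.50 ± 0.085 (adjusted p = 0.0034) on 3 arrays, with -0.0063 on array 2, then -0.93 and -1.05 on the Cy3 arrays. The other 6, SNX8, SNX15, SNX18, SNX21, SNX24 and SNX27, lay between -0.12 and 0.087 and did not pass the test.

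SNX3 and SNX12 thus had estimates of opposite sign, and SNX10 and SNX11 of the same sign, although the difference within these pairs was not tested. Of the 12 other sorting nexins with all 4 arrays, 3 were above 0 on every array, 3 below 0 on every array, 1 below and then above, and 3 above and then below. The dye term passed in 5 of the 13. Their probes were richer in G and C, with a median of 45% and a range of 36.7% to 55%. The dye coefficient was below 0 in 3 of the 13, in 9 of the 10 members and in 4423 of the 8852 probes tested. The groups were not compared at equal composition, and at 43.3% G and C the dye coefficient was -0.65 for SNX4 and -0.023 for SNX13.

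The genes whose ratios over the 4 arrays lay nearest to those of SNX16, by Euclidean distance among 7965 genes outside the family members, were RBM11 (distance 0.47), FAM174A (0.47), HSPA4L (0.49), NEAT1 (0.56) and TMEM154 (0.62). All 5 probes hold 35% G and C. RBM11, which encodes an RNA-binding protein, read 0.33 and 1.04 and then 2.69 and 2.51. HSPA4L, of the Hsp110 chaperones, read 0.67 and 1.11 and then 2.66 and 2.90. NEAT1, the long noncoding RNA of paraspeckles, read 0.90 and 0.75 and then 2.05 and 2.77. The control channels of RBM11 and TMEM154 were not well above background on any array, and their treated channels were on 2. With the control set no lower than the dimmest control spot well above background on each array, the mean ratios were 2.01-fold and 1.22-fold. These means include arrays on which neither channel was well above background, so they are no strict minimum. All 5 thus had the step between orientations that SNX16 had, and these genes were picked for that likeness.

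The 6 gene lists around the sorting nexins and the list of other sorting nexins held 146 genes tested, of which 52 were higher and 12 lower in treated cells by limma at an adjusted p under 0.05. Over all 8834 genes tested 2150 were higher and 1149 lower. The median log2 ratio was 0.10 over the 146 genes and 0.017 over all genes. The split of the 146 genes was 56 higher and 5 lower with median centring in place of loess, 36 and 10 with processed signals, and 39 and 18 with the trend of G and C removed.

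Of the retromer, WASH and Commander subunits, which work with the SNX-BAR proteins or with SNX3 and SNX17, 8 were tested, 3 were higher and 0 lower, with a median of 0.090. The higher ones were VPS26A (0.37 on 3 arrays, adjusted p = 0.013), WASHC2A (0.30, adjusted p = 0.044) and VPS26C (0.21, adjusted p = 0.032). WASHC2A did not pass without array 2 (0.18, adjusted p = 0.12), and VPS26C read -0.047 and 0.46 by orientation. VPS35, the core of retromer, read -0.51 on array 2 and a mean of 0.58 on the Cy3 arrays, with an estimate of 0.032 on 3 arrays. Its probe holds 35% G and C. SNX2, SNX5 and SNX6 also went from below to above 0, as did 24.4% of all probes tested that were measured on all 4 arrays. Of 19 enzymes and effectors of phosphatidylinositol 3-phosphate, the lipid that PX domains bind, 9 were higher and 1 lower, with the highest median of the lists, 0.22. WIPI1, which binds this lipid on autophagosomes, had a ratio of 0.83 ± 0.069 (adjusted p = 7.7e-05) and was above 0 on all 4 arrays. MTMR9, a catalytically inactive myotubularin, had 0.58 ± 0.069 and was above 0 on all 4 arrays. PIK3C3, a kinase that makes the lipid, had 0.53. The only lower gene was MTMR1, a phosphatase that removes it, at -0.29 ± 0.068 (adjusted p = 0.012). Other myotubularin genes were higher, MTMR3 (0.50), MTMR4 (0.23) and MTMR6 (0.54, with -0.35 and 1.42 by orientation). The amount of the lipid was not measured.

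Of 27 ESCRT and receptor-sorting genes, 11 were higher and 3 lower, with a median of 0.017. The largest estimate was that of STAM2, an ESCRT-0 subunit, at 0.86 ± 0.068, but STAM2 read -0.52 on the Cy5 arrays and 2.23 on the Cy3 arrays. CHMP4C (0.66) likewise had means of -0.21 and 1.53 by orientation, was well above background on 2 arrays in each channel, and did not pass with processed signals (adjusted p = 0.32), while VPS37B (-0.37) and STAM (-0.32) were lower. Among 35 endosomal Rab proteins, tethers and SNAREs, 9 were higher and 2 lower. RAB5A, which marks early endosomes, had 0.65 ± 0.076 and STX12, a SNARE of recycling endosomes, 0.56 ± 0.066, both above 0 on all 4 arrays, whereas RAB4A (-0.48) and RAB5C (-0.22) were below 0 on all 4.

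The EGF receptor, which SNX16 and SNX1 have been linked to, was not well above background in either channel on any array. Of its family, ligands and adaptors 25 genes were on the array, 12 were tested, and 5 were higher and 1 lower. AREG, a ligand of the receptor, had a ratio of 0.70 ± 0.067 (adjusted p = 0.00016) and CBLB, a ubiquitin ligase that marks receptors for lysosomes, 0.65 ± 0.078 (adjusted p = 0.00044), and both were above 0 on all 4 arrays. ERBB3 was lower, at -0.26. Of 32 lysosome proteins and their sorting receptors, 11 were higher and 2 lower with a median of 0.090. NEU1, a lysosomal sialidase, had 0.64 and ATP6V1H, a subunit of the proton pump, 0.68, though ATP6V1H read -0.64 and 1.99 by orientation. CTSB (-0.26) and M6PR (-0.20), the cation-dependent receptor that carries lysosomal enzymes and cycles between the Golgi and endosomes, were lower, M6PR with -0.56 and 0.17 by orientation.

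**Figure D5:**
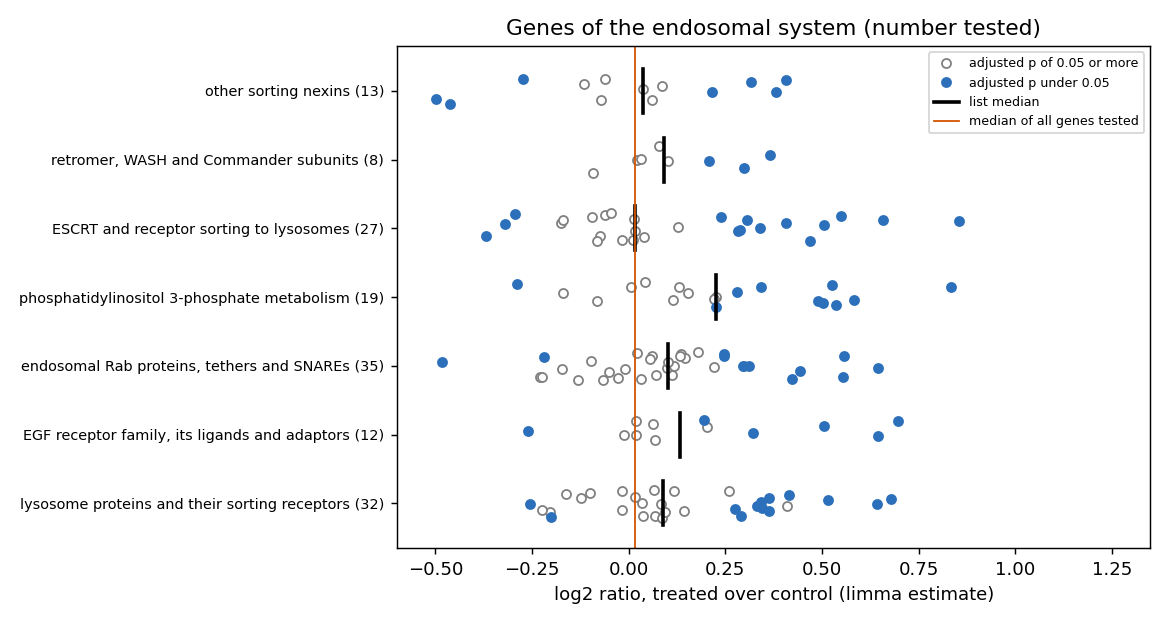
Log2 ratio of treated to control (horizontal axis, limma estimate) of each gene tested in the other sorting nexins and the 6 lists around them (vertical axis, number tested in brackets). Filled points passed an adjusted p under 0.05, open points did not, black bars are list medians and the orange line is the median of all genes tested, 0.017. The list medians run from 0.017 to 0.22.

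Promoter windows of 300 bases from RefSeq (GRCh38.p14) covered 9 of the 10 genes in 14 windows, and SNX16 was not searched. They were searched on both strands for motifs of stress responses, and no motif matched in most of the genes. The cAMP response element TGACGTCA was in 1 of the 14 windows, that of SNX5, and in 1.85% of all 35116 windows. The AP-1 site TGANTCA was in 4 of the 6 SNX10 windows, at 2 places, and in 7.71% of all windows. The antioxidant response element TGACNNNGC was in 3 of the 14 windows, of SNX2, SNX3 and SNX10, and in 13.3% of all windows. The amino acid response element TGATGNAAN was in 1 of the 14, a window of SNX10, and in 3.61% of all windows. None of the 9 held the CLEAR element TCACGTGA (0.98% of windows), the heat shock element or the ER stress element, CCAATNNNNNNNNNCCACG, which was in 0.0769% of windows. The matches of different motifs did not overlap in these genes. The SNX10 stretch is shown because SNX10 was above 0 on all 4 arrays and the SNX5 stretch as its counterpart whose ratio changed sign, with the motif in capitals.
SNX10 (chr7:26291660-26291746, plus strand): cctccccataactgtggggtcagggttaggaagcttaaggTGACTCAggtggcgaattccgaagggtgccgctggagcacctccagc
SNX5 (chr20:17968816-17968903, minus strand): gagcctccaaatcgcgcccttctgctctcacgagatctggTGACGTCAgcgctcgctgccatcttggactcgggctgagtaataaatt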

How the data were processed

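The authors hybridised RNA of treated and control K562 cells to 4 two-colour Agilent arrays and quantified the images with Feature Extraction (version 9.5.1.1 per the file headers). The deposited values are spot and local background intensity in both channels, without normalization, on a linear scale. The deposited files also hold processed signals and, like the authors' table of the series, log10 ratios, which read treated over control once turned on arrays 3 and 4. From the intensities, background was corrected with normexp (offset 50), control spots were dropped, and loess (span 0.3) was run within each array. Spots carrying a mark (non-uniform, population outlier) were dropped too. Probes were tested where 2 or more arrays had a channel well above background and 3 or more had an unmarked spot. limma 3.58.1 in R 4.3.3 was fitted to all 8852 probes, with terms for treatment and dye, and p-values were adjusted by Benjamini-Hochberg. Log2 levels per channel were scaled between arrays on their mean intensity (Aquantile). Array number limits the precision. The limma step was tested on simulated data.

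The members and lists were chosen with earlier results of these data known. Genes named are all members and other sorting nexins, up to 2 per list and direction with the largest ratio past the threshold, and the 5 nearest to SNX16. VPS26C, VPS35, PIK3C3, MTMR3, MTMR4, MTMR6, EGFR, NFE2, KLF1 and GATA1 were added after their values were seen. The brightest probe stood for a gene with several. Symbols came through the accession from a RefSeq table of GRCh38.p14, which named 12002 of 14297 probes, and from older names for 302. Alternatives were no background subtraction, median centring, processed signals, ratios of the series table, other thresholds and filters, marked spots kept, no dye term, the trend with G and C removed, and each array left out. Part of the result of a second marker list is not reported here.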

Additional observations from a re-analysis of the deposited data

Results flagged for a closer look

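SNX11, a PX-only sorting nexin outside the 10 genes, had 1 array far from the other 3. Its log2 ratio was 0.69 on array 2 against 0.35, 0.28 and 0.31 on arrays 1, 3 and 4, and the gap to the nearest array was 0.845 of the whole range. This check was made on 44 genes and marked 1 of them. About 1 gene in 20 would be flagged by chance if the 4 arrays were independent draws from 1 normal distribution. Many of these genes had a gap between orientations, so that rate does not apply to them.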

How the results depend on the processing

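No alternatives are given for VPS26C, VPS35, PIK3C3, MTMR3, MTMR4, MTMR6, NFE2, KLF1 or GATA1. Alternatives were run for the members, the other sorting nexins, up to 2 genes per list and direction and the 5 genes nearest to SNX16. Of these, 32 genes outside the members had passed the test. Each kept its direction, but all 32 lost the call without the dye term and 15 did under another alternative. RAB5C lost it under 8, WASHC2A under 7, SNX19 under 6, M6PR under 5, CTSB, ERBB3, MTMR1, SNX17 and VPS26A under 4, CHMP4C, SNX4 and STAM under 3, SNX12 under 2, and SNX11 and VPS37B under 1. The ratios of 9 members moved by less than their SD over arrays, which the gap between orientations widens. SNX13, with the smallest SD of the members (0.054), moved by more than its SD. Its ratio went from 0.39 to 0.27 with processed signals or the series table. It was 0.52 with median centring and 0.33 with the trend of G and C removed. SNX16, with an SD of 1.11, ranged from 1.51 to 2.05. The SD therefore does not rank the members by how much processing moved them. Without the dye term 0 members and 0 and 0 of the other endosomal genes were higher and lower, and 52 and 4 of all 8937 probes. With the trend of G and C removed 2 members were lower. The members were chosen from this contrast, so counts of members higher or lower are no test here either. Nothing is read from them. Of the 146 endosomal genes, 5 were lower with median centring, 33 were higher when both channels had to be above background on all arrays (fewer genes tested, 101), and 34 higher and 6 lower passed an adjusted p under 0.01. With each array left out, 3 to 5 members were higher and 0 to 0 lower, 5 to 8 passed the dye term, and 21 to 63 endosomal genes were higher and 2 to 16 lower. The fewest came without array 4 (3 members and 21 higher, 2 lower) and without array 3 (3 members and 27 higher, 3 lower), which leave 1 array in the quieter orientation. Over all 8852 probes, 2155 were higher and 1151 lower, against 2364 and 596 with median centring, 1577 and 1148 with processed signals, 1762 and 1593 with the trend of G and C removed, and 1354 and 468 at an adjusted p under 0.01. With 1 array left out, all probes gave 1010 to 2590 higher and 283 to 1469 lower. The causes were not tested. Treated and control RNA were paired within each array by the ratio itself. No paired analysis was possible beyond this because the labels number no cultures. Signal over background limits SNX16 on arrays 1 and 2.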
